A study of Macaca mulatta with 2 samples.

Results

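Antioxidant defence genes were described here across 2 RNA sequencing libraries of the prefrontal cortex of infant rhesus macaques (Macaca mulatta). The 10 genes were chosen by symbol, and all 10 of them were found among the 33618 genes of the deposited count table. They comprise the superoxide dismutases SOD1 and SOD2, the peroxide-removing enzymes CAT, GPX1 and GPX4, the glutathione synthesis subunits GCLC and GCLM, and the inducible enzymes TXNRD1, NQO1 and HMOX1. The labels give 1 control library and 1 sevoflurane library, each from an animal labelled postnatal day 28, whereas the series design names 3 animals per group. By the labels, sevoflurane was inhaled at about 2.5 to 3% for 4 h at each of the exposures, the first on about postnatal day 7 and the others timed at 14 and 28 days. The study's methods put the later exposures at older ages than its results do, the last of them past the labelled age of these animals, so the exposure days are uncertain. The study's methods state that it was given in pure oxygen through an endotracheal tube and that the tissue was taken straight after the third exposure. The gas that the control animals breathed, and whether they were intubated, is not given in the sources used here, so sevoflurane, oxygen and handling cannot be told apart. The methods list females alone in the control group and a male among the anesthesia group. In the 2 libraries, 7 Y-linked genes together held 3 reads in control and 4308 in the sevoflurane library. By these reads the libraries differ in sex as well as in exposure, and the 2 cannot be told apart.

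Superoxide leaks from respiration and from oxidase enzymes, and the superoxide dismutases turn it into hydrogen peroxide. Catalase, the glutathione peroxidases and the peroxiredoxins then remove the peroxide, and the latter enzymes draw their electrons from glutathione or thioredoxin and in the end from NADPH. When oxidants or electrophiles modify the sensor protein KEAP1, the transcription factor NRF2, encoded by NFE2L2, escapes degradation, pairs with small MAF proteins and switches on genes such as NQO1, HMOX1, GCLC, GCLM and TXNRD1. In cortex, these enzymes are found in neurons and glia alike, and NRF2 targets are known as a prominent part of the astrocyte's defence.

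The libraries held 16960880 (control) and 9839105 (sevoflurane) reads on genes, a depth ratio of 1.72. Counts were scaled to CPM, reads relative to a library size set to be alike by TMM factors, and each gene's log2 ratio of sevoflurane over control was taken with 2 reads added as a prior count. The 95% interval of each level or ratio covers counting error only. With 1 library per group no test was possible, no variation between animals is included, and each difference is between these libraries and not between the conditions. Of the table's genes, 18050 had at least 1 CPM in either library and were assessed, and all 10 antioxidant defence genes were among them. Their reads summed to 6258 in control and 3659 in the sevoflurane library, or 372 and 368 CPM. The log2 ratio of these summed levels was -0.02 (interval -0.07 to 0.04), so the summed level of the 10 genes differed by less than counting error. This sum mostly follows SOD2, GPX4 and SOD1. They held 32.9%, 26.8% and 17.9% of these reads in control and 37.3%, 26.9% and 16.0% in the sevoflurane library.

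**Figure D1:**
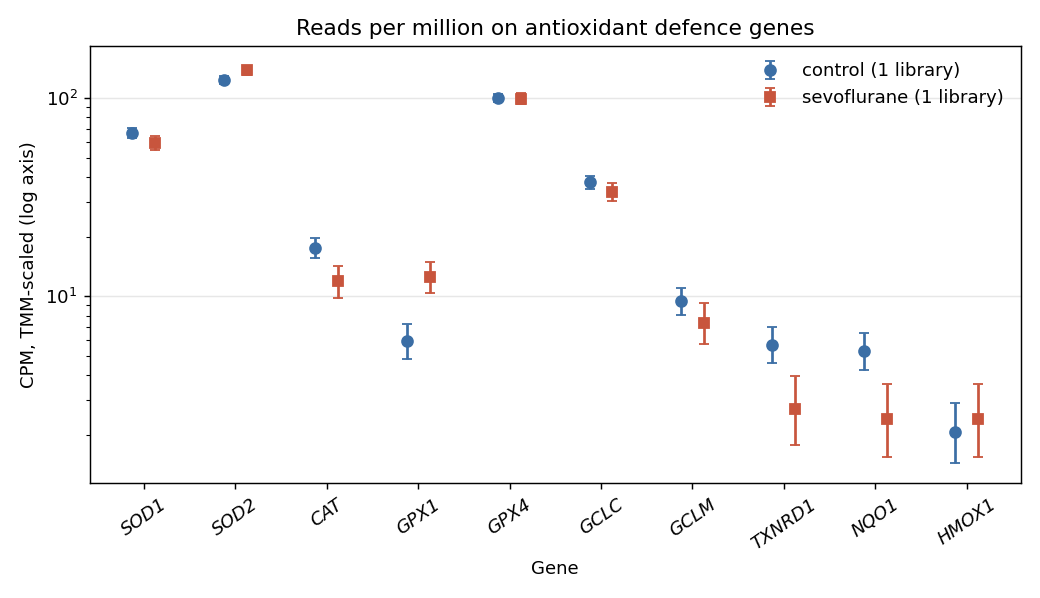
Level of each antioxidant defence gene in CPM on a log axis, with the control library as circles, the sevoflurane library as squares and bars for the exact 95% Poisson interval. GPX1 is the gene whose sevoflurane level (12.5 CPM) lies clearly above its control level (5.95 CPM), while TXNRD1 and NQO1 lie lower in the sevoflurane library; the levels are not divided by transcript length, so heights of different genes are not to be compared.

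Single genes moved apart under this even sum. GPX1 was higher by 2-fold or more in the sevoflurane library, and NQO1 and TXNRD1 were lower by as much, each with an interval that excluded equal expression. Among all assessed genes, 7.56% were called higher and 5.47% lower by the same rule, so 1 of 10 higher and 2 of 10 lower rest on few genes against that background. With GAPDH reads as the reference in place of TMM, NQO1 was at -0.94 and TXNRD1 at -0.88, both less than 2-fold, and 0 of the 10 genes were called lower beside 4.1% of all assessed genes. The median log2 ratio of the 10 genes was -0.17, and that of all assessed genes was -0.0048. By the interval alone, 2 genes were higher (SOD2 and GPX1, beside 28.4% of all assessed genes) and 4 lower (NQO1, TXNRD1, CAT and SOD1, beside 28.1%). The remaining 4 genes, GPX4, GCLC, GCLM and HMOX1, had intervals that included equal expression. Each of the 10 ratios lay inside the central 95% of all assessed genes, which ran from -1.49 to 1.81.

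**Figure D2:**
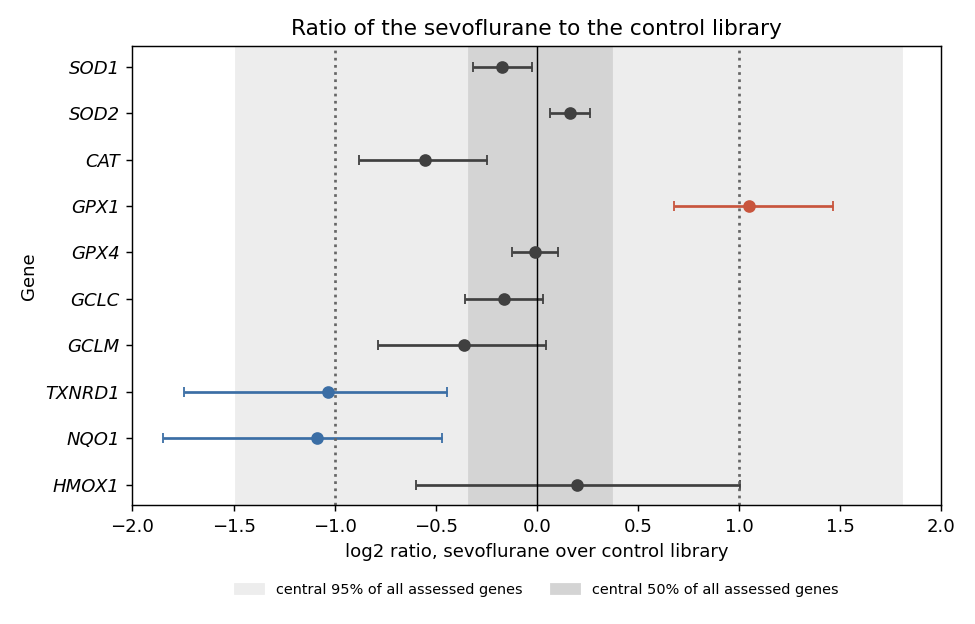
Log2 ratio of the sevoflurane over the control library for each antioxidant defence gene, with the 95% counting interval as a bar, dotted lines at 2-fold and grey bands for the central 50% and 95% of all assessed genes. GPX1 (1.05) lies past the upper line and NQO1 (-1.09) and TXNRD1 (-1.03) past the lower, and all 10 points lie inside the wider band.

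The superoxide dismutases differed little between the libraries. SOD1, the copper and zinc enzyme of the cytosol, had 1118 reads in control and 587 in the sevoflurane library, or 66.5 and 59.1 CPM. Its level was slightly lower in the sevoflurane library, with a log2 ratio of -0.17 and an interval of -0.32 to -0.03. SOD2, the manganese enzyme of the mitochondrial matrix, had 2061 and 1365 reads, or 123 and 137 CPM. It was slightly higher, at 0.16, with an interval of 0.06 to 0.26. Within each library, SOD2 had 1.84 reads per SOD1 read in control and 2.33 in the sevoflurane library, a 1.26-fold higher ratio (95% interval 1.12 to 1.43). This ratio does not depend on the scaling between libraries, and it shows that the dismutase genes moved unequally without saying which one did. With GAPDH reads as the reference, SOD1 was at -0.02 and no longer separated from equal expression (-0.16 to 0.13). SOD3, the secreted dismutase, was at -0.04 (-0.85 to 0.74), and CCS, the copper chaperone that loads SOD1, was higher at 0.52 (0.28 to 0.77).

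The peroxide-removing enzymes went in different directions. GPX1, the selenium-dependent glutathione peroxidase of the cytosol and mitochondria, had 100 reads in control and 124 in the sevoflurane library, more reads in the shallower library. Its level went from 5.95 CPM (4.84 to 7.24) to 12.5 CPM (10.4 to 14.9), a 2.10-fold difference with a log2 ratio of 1.05 and an interval of 0.68 to 1.46. Among all assessed genes, 7.26% had a higher ratio. GPX4, the peroxidase that repairs oxidised membrane lipids and so protects cells from ferroptosis, had 1676 and 984 reads, or 99.7 and 99.1 CPM. Its levels were not distinguishable, with a log2 ratio of -0.01 and an interval of -0.12 to 0.10. With GAPDH reads as the reference GPX4 was at 0.14, separated from equal expression (0.03 to 0.26). The median of all assessed genes was 0.15 with that reference. CAT, the catalase of peroxisomes, had 294 and 118 reads, or 17.5 and 11.9 CPM. It was 1.47-fold lower in the sevoflurane library, at -0.55, with an interval of -0.88 to -0.25.

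The difference in GPX1 was also seen in ratios within each library. There were 16.8 GPX4 reads per GPX1 read in control and 7.94 in the sevoflurane library, a ratio 2.11-fold lower (1.59 to 2.81). CAT had 2.94 reads per GPX1 read in control and 0.952 in the sevoflurane library, 3.08-fold lower (2.17 to 4.40). GPX1 took 1.60% of the reads on the 10 genes in control (exact 95% interval 1.30 to 1.94) and 3.39% in the sevoflurane library (2.83 to 4.03). The intervals do not overlap, and they hold whatever the scaling between the libraries. Both ratios and the share use the same GPX1 reads, so they restate the GPX1 difference and are not separate results.

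**Figure D3:**
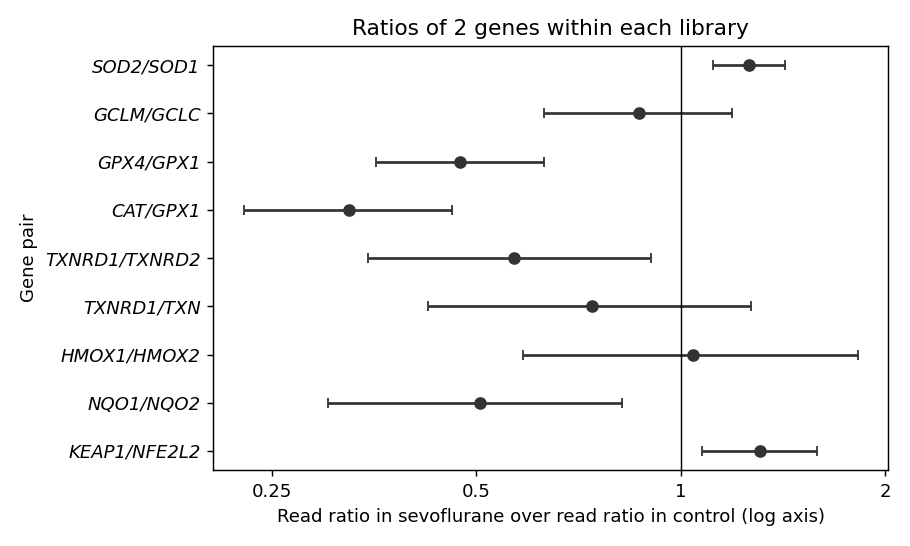
For each of 9 gene pairs, the ratio of reads on the first gene to reads on the second gene in the sevoflurane library divided by the same ratio in the control library, on a log axis, with the exact 95% interval as a bar. CAT/GPX1 and GPX4/GPX1 lie farthest below equality, SOD2/SOD1 and KEAP1/NFE2L2 lie above it, and the intervals of GCLM/GCLC, TXNRD1/TXN and HMOX1/HMOX2 include it.

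GPX1 is abundant in red blood cells and in macrophages, and the summed markers of each were higher in the sevoflurane library. The 10 red blood cell genes summed to 25.6 CPM in control and 82.0 in the sevoflurane library, mainly through HBB, the beta chain of hemoglobin (350 and 672 reads, log2 ratio 1.69). HBA1 had 0 and 70 reads, the membrane protein gene SLC4A1 2 and 0, and EPB42 0 in both libraries, and 4 of the 10 were assessed. HBA1 and HBA2 are near-identical, so their reads may have been divided between them by the counting. The 13 microglia and macrophage genes summed to 265 and 304 CPM. By the interval, 7 of them were higher and 1 lower, or 53.8% and 7.69% beside 28.4% and 28.1% of all assessed genes. C1QB, a complement gene, was the highest at 1.35, while P2RY12 was at -0.52 and CX3CR1 at -0.10. The part of blood or macrophages in the GPX1 level was not tested, and in bulk tissue fewer cells of a type and less RNA per cell cannot be told apart. CAT and PRDX2, which red blood cells also carry in quantity, were at -0.55 and -0.04.

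The glutathione synthesis genes among the 10 were both somewhat lower, each within counting error. GCLC encodes the catalytic subunit of glutamate-cysteine ligase, the rate-limiting enzyme of the pathway, and GCLM encodes its modifier subunit. GCLC had 630 reads in control and 333 in the sevoflurane library, or 37.5 and 33.5 CPM, with a log2 ratio of -0.16 (-0.36 to 0.03). GCLM had 159 and 73 reads, or 9.46 and 7.35 CPM, at -0.36 (-0.78 to 0.04). Neither gene alone was separated from equal expression, while their summed reads, 789 and 406, gave a log2 ratio of -0.20 (-0.38 to -0.03). With GAPDH reads as the reference, GCLC was at -0.01 (-0.20 to 0.19) and GCLM at -0.21 (-0.63 to 0.20). The sum was not computed with that reference, and its TMM interval ends close to equal expression. GSS, on the list of glutathione supply and recycling, was at 0.12 by TMM. There were 0.252 GCLM reads per GCLC read in control and 0.219 in the sevoflurane library, and the interval of the ratio between them, 0.629 to 1.19, included equality.

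The inducible enzymes held the fewest reads of the antioxidant defence genes. NQO1 and TXNRD1, but not HMOX1, held the lowest ratios. NQO1, the quinone reductase often used as a readout of NRF2, had 89 reads in control and 24 in the sevoflurane library. Its level went from 5.30 CPM (4.25 to 6.52) to 2.42 CPM (1.55 to 3.60), 2.19-fold lower, with a log2 ratio of -1.09 and an interval of -1.85 to -0.47. TXNRD1, the cytosolic thioredoxin reductase, had 96 and 27 reads and went from 5.71 CPM (4.63 to 6.98) to 2.72 CPM (1.79 to 3.96). It was 2.10-fold lower, at -1.03, with an interval of -1.74 to -0.44. Both genes were clearly lower at this depth, but the size is loosely fixed, since differences of 1.38-fold for NQO1 and 1.36-fold for TXNRD1 lie at the near end of the intervals. Among all assessed genes, 4.94% had a lower ratio than NQO1 and 5.48% a lower one than TXNRD1.

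HMOX1, the inducible heme oxygenase that frees iron, biliverdin and carbon monoxide from heme, did not join them. It had 35 reads in control and 24 in the sevoflurane library, or 2.08 CPM (1.45 to 2.90) and 2.42 CPM (1.55 to 3.60). The log2 ratio of 0.20 had an interval from -0.60 to 1.00, the widest of the 10 genes, so differences from 1.51-fold lower to 2.01-fold higher were not detectable at this depth. When the control library was sampled down at random to the sevoflurane depth, the ratio turned to -0.18.

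Partner genes of the same enzyme systems were compared next. NQO2, the relative of NQO1 that does not use NADPH, had 598 and 319 reads at -0.15 (-0.35 to 0.05), and NQO1 reads per NQO2 read were 1.98-fold lower in the sevoflurane library (1.22 to 3.31). TXNRD2, the mitochondrial reductase, had 494 and 245 reads at -0.25 (-0.48 to -0.03), and TXNRD1 reads per TXNRD2 read were 1.76-fold lower (1.11 to 2.89). Both inducible genes thus had fewer reads in the sevoflurane library relative to their constitutive relatives as well. TXN, the thioredoxin that TXNRD1 reduces, had 171 and 65 reads at -0.63 (-1.07 to -0.22), and the ratio of TXNRD1 to TXN did not differ beyond counting error (0.424 to 1.27). HMOX2, the constitutive heme oxygenase, had 858 and 565 reads at 0.16, and the ratio of HMOX1 to HMOX2 was 1.04 times that of the control (0.586 to 1.82). In the RefSeq annotation of assembly MMU8v2.0, TXNRD1 overlaps EID3, which had 120 and 56 reads (log2 ratio -0.33), and how reads in the overlap were assigned is not given in the sources used here. SOD1 and CAT each overlap 1 non-coding gene there, and the other 7 genes overlap none.

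**Figure D4:**
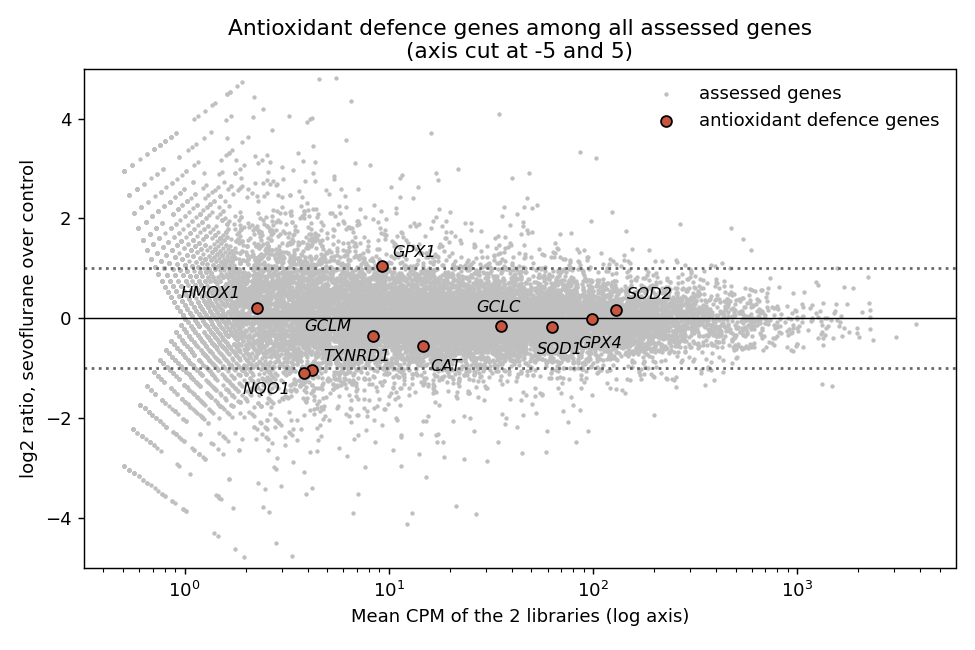
Log2 ratio of the sevoflurane over the control library against the mean CPM of both on a log axis, for all assessed genes in grey and the 10 antioxidant defence genes as outlined points, with dotted lines at 2-fold. The spread of the grey points widens toward low CPM, where HMOX1, NQO1, TXNRD1 and GPX1 lie, while SOD1, SOD2 and GPX4 lie in the narrow part of the cloud.

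The depth set how firmly each gene could be placed. The 95% interval of the log2 ratio was 0.199 wide for SOD2, 0.229 for GPX4 and 0.292 for SOD1, and 1.30 to 1.60 wide for TXNRD1, NQO1 and HMOX1. The genes past 2-fold all came from the thinly read side, with means of 9.22 CPM for GPX1, 4.22 for TXNRD1 and 3.86 for NQO1. Next to them in size stood CAT at -0.55. Mean levels of different genes were not ranked, because transcript lengths of the build behind the counts were not used here.

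The machinery that controls NRF2 was mostly a little lower. NFE2L2 itself had 517 reads in control and 274 in the sevoflurane library, or 30.8 and 27.6 CPM, at -0.16 (-0.37 to 0.06). KEAP1, its inhibitor, had 629 and 436 reads and was slightly higher at 0.23 (0.05 to 0.41). KEAP1 reads per NFE2L2 read were 1.22 in control and 1.59 in the sevoflurane library, 1.31-fold higher (1.08 to 1.59). Of 13 assessed sensor and partner genes, 1 was higher and 10 lower by the interval, or 7.69% and 76.9% beside 28.4% and 28.1% of all assessed genes, with a median of -0.24. The lowest were NFE2L3, encoding the related factor NRF3 (345 and 83 reads, -1.28), and MAFG, a small MAF partner of NRF2 (882 and 252 reads, -1.04). Of the other small MAF genes, MAFF had 28 reads in both libraries, at 0.71 (-0.05 to 1.57), and MAFK had 0 and 2 reads and was not assessed. BACH1, the repressor of HMOX1, was at -0.37 (-0.59 to -0.16). With GAPDH reads as the reference, 3 of these genes were higher and 5 lower by the interval, beside 38.8% and 18.8% of all assessed genes, and MAFG was at -0.89, less than 2-fold.

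Other NRF2 targets resembled GCLC and GCLM more than NQO1. Of 23 assessed, 3 were higher, 10 lower and 10 neither by the interval, or 13.0% higher and 43.5% lower beside the same background, and the median was -0.17. ME1, an NADPH-producing malic enzyme, was the gene past 2-fold (610 and 152 reads, log2 ratio -1.24, interval -1.51 to -0.99). PRDX1 was at -0.95 and GSR, the glutathione reductase, at -0.72, both with intervals below equal expression. SLC7A11, the cystine importer that feeds glutathione synthesis, was higher at 0.26 (0.11 to 0.41), and SRXN1, the sulfiredoxin that restores overoxidised peroxiredoxins, was at 0.01 (-0.21 to 0.23). The ferritin chains parted, with FTL at -0.43 (-0.54 to -0.34) and FTH1 at 0.32 (0.22 to 0.42), although both have processed copies in primate genomes and their reads may be shared.

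The peroxiredoxins, which handle most cellular peroxide, were at or below the control level by TMM scaling. With GAPDH reads as the reference, PRDX2 was at 0.11 and PRDX5 at 0.05, and the median of all assessed genes was 0.15. PRDX4 of the endoplasmic reticulum had 104 reads in control and 27 in the sevoflurane library (-1.14, interval -1.85 to -0.56). PRDX1 had 878 and 268 reads, and PRDX3 of mitochondria had 870 and 341 (-0.59, interval -0.78 to -0.41). PRDX6 was at -0.21 (-0.38 to -0.04), while PRDX2 (-0.04) and PRDX5 (-0.10) were not separated from equal expression. Together the 6 genes went from 364 to 304 CPM. In the wider list of superoxide and peroxide removal, 1 of 11 assessed genes was higher (9.09%) and 5 lower (45.5%) by the interval, with a median of -0.21, and the plasma peroxidase GPX3 was at -0.86 (-1.53 to -0.28).

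The thioredoxin system had 2 of 12 assessed genes higher (16.7%) and 3 lower (25%) by the interval. Both shares were below those of all assessed genes (28.4% and 28.1%). The median of the list was -0.04. With GAPDH reads as the reference it was 0.11, and that of all assessed genes was 0.15. TXNIP, which binds and inhibits thioredoxin, had 822 reads in control and 1027 in the sevoflurane library, or 48.9 and 103 CPM, at 1.08 (0.95 to 1.21). The methionine sulfoxide reductases went apart, with MSRB2 of mitochondria at -1.30 (129 and 30 reads) and MSRA at 0.66. Glutathione supply and recycling had 2 of 16 assessed genes higher (12.5%), 5 lower (31.2%, near the background) and none past 2-fold, with the glutaredoxin GLRX at 0.69 (0.49 to 0.89). Of 13 glutathione transferases, 2 were higher (15.4%) and 5 lower (38.5%), and MGST1 of microsomal membranes (192 and 36 reads, -1.62) and GSTO1 (285 and 67 reads, -1.31) were past 2-fold.

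GPX1, GPX4 and TXNRD1 are selenoproteins, with log2 ratios of 1.05, -0.01 and -1.03. Of 21 assessed genes of other selenoproteins and selenium supply, 6 were higher (28.6%) and 11 lower (52.4%) by the interval. The shares of all assessed genes were 28.4% and 28.1%. The median of the list was -0.25 and none of its genes was past 2-fold. With GAPDH reads as the reference, 6 were higher and 6 lower (28.6% each), beside 38.8% and 18.8% of all assessed genes. SELENOW, listed under its older symbol SEPW1, had 8259 and 2652 reads and was the lowest of them at -0.88. SELENOP, listed as SEPP1 and known as the carrier of selenium, had 1448 and 1067 reads at 0.32 (0.20 to 0.43).

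**Figure D5:**
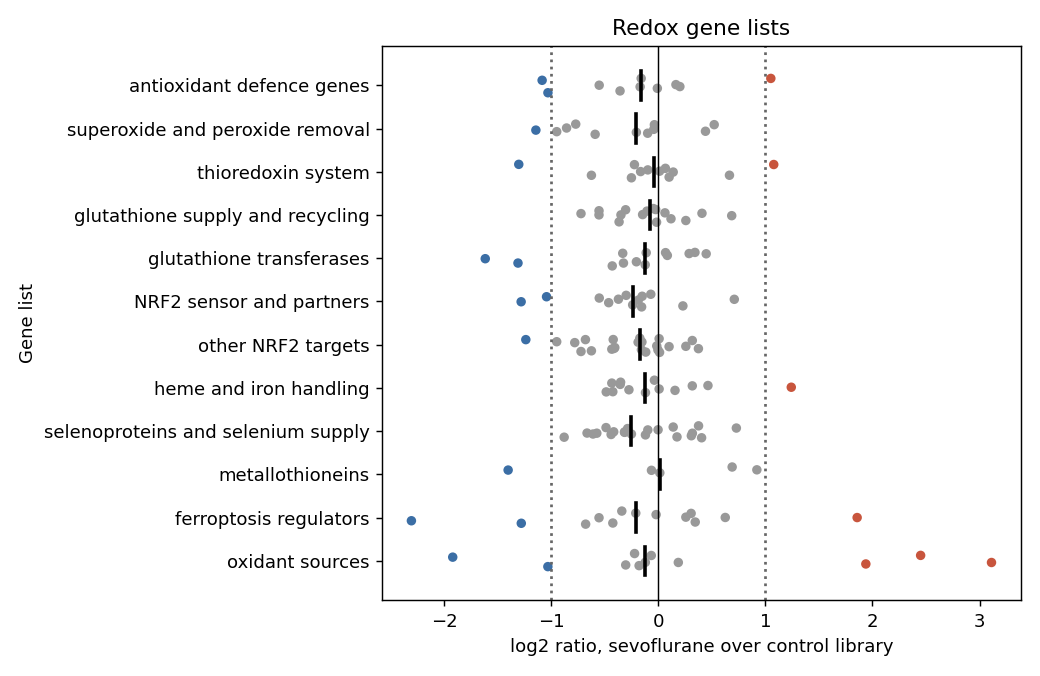
Log2 ratio of the sevoflurane over the control library for the assessed genes of each redox gene list, 1 point a gene, with a black bar at the list's median, dotted lines at 2-fold, red for genes past 2-fold that were higher and blue for those that were lower. Most medians lie between -0.25 and 0. With GAPDH reads as the reference the medians of 5 lists that lie below 0 here turn above it. That of all assessed genes is then 0.15, higher than each of the 5.

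Over the 137 assessed genes of the 11 lists together, 6 were higher by 2-fold or more and 12 lower, or 4.38% and 8.76%, beside 7.56% and 5.47% of all assessed genes. By the interval, 28 were higher and 60 lower, or 20.4% and 43.8%, beside 28.4% and 28.1%. The lower share thus exceeded the background and the higher share did not reach it, while the median was -0.15. With GAPDH reads as the reference, 38 were higher and 43 lower by the interval, beside 38.8% and 18.8% of all assessed genes, and the median was -0.0017, while that of all assessed genes was 0.15. Such a count also depends on depth, since a gene with more reads has a narrower interval.

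By TMM scaling, most neuron and astrocyte markers and all myelin markers on the lists were lower in the same library. The 9 astrocyte genes summed to 6255 CPM in control and 4385 in the sevoflurane library. GFAP was at -1.35 and AQP4 at -1.38, but SOX9 was at 0.99 and SLC1A3 at 0.27. By the interval, 2 of the 9 were higher and 6 lower, or 22.2% and 66.7%. All 10 oligodendrocyte and myelin genes were lower, from 4267 to 2069 CPM in sum, with MOG, OPALIN, CLDN11, ERMN and UGT8 at -1.90 to -1.26. The 11 neuron genes, SNAP25 and SLC17A7 among them, marked both libraries as cortex and summed to 6103 and 5211 CPM. By the interval, 1 of them was higher and 9 lower, or 9.09% and 81.8% beside 28.4% and 28.1% of all assessed genes. RBFOX3 was the highest at 0.83 and GAP43 the lowest at -0.95. With GAPDH reads as the reference, SLC17A7 turned to 0.03 and NEFM to 0.04, and the median of all assessed genes was 0.15. The other neuron, astrocyte and myelin genes on the lists kept their sign. The 8 endothelial genes summed to 261 and 265 CPM. The meninges and choroid plexus genes summed to 214 and 353 CPM, with TTR at 3.61, COL1A1 at 1.14 and CLIC6 at -1.82. Of the 7 assessed, 3 were higher and 1 lower by the interval, or 42.9% and 14.3%. None of the astrocyte, oligodendrocyte, neuron or endothelial genes was at 0 reads. The part of these shifts in the levels of NQO1, TXNRD1, CAT or the peroxiredoxins was not tested.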

How the data were processed

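RNA was extracted with Trizol from frozen prefrontal cortex, and Illumina libraries were sequenced. The deposited table holds raw read counts, 1 whole number per gene and library, which the authors had not normalized. The submitters' processing notes name HISAT2 2.0.4, while the counting tool, strandedness, genome build and annotation are not given in the sources used here. In edgeR 4.0.16 (R 4.3.3), TMM factors (0.991 control, 1.01 sevoflurane) were computed on the genes that reached 1 CPM in a library. The log2 ratio used a prior count of 2, and folds and levels used none. Intervals came from exact Clopper-Pearson, Poisson or conditional odds ratio limits at 95% (scipy 1.17.1, Python 3.11.15, numpy 2.4.6, pandas 2.3.3, matplotlib 3.10.9) and cover counting error only. A gene was called at 2-fold with an interval excluding equal expression. The procedure was tested on simulated data. With 1 library per group, neither edgeR's quasi-likelihood test nor DESeq2's could be fitted, so p-values are absent.

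The genes and the lists were chosen with earlier results of these data known. Named were all 10 genes, their partners, the peroxiredoxins, HBB, reference genes and, per list, up to 6 genes past 2-fold with a mean of at least 2 CPM. Other named list genes, and EID3, were picked after their values were seen. Of 234 listed genes, 214 matched the table by symbol, 11 by an older symbol and 6 by gene ID in the RefSeq table of assembly MMU8v2.0, and 3 had no match. Protein and promoter sequences were not used here. Some genes that the naming rule covers are not reported here. As alternatives, scaling was done by size factors (DESeq2 1.42.0), totals, upper quartiles or GAPDH reads, the prior count was set to 0.5, the filter to 1 read or 5 CPM, and the rest were a control library sampled down, a threshold of 1.5-fold and 99.9% intervals.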

Additional observations from a re-analysis of the deposited data

How the results depend on the processing

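GPX1 stayed at least 2-fold higher under every alternative run, from 1.05 to 1.20. NQO1 (-1.23 to -0.94) and TXNRD1 (-1.23 to -0.88) kept their direction, and with GAPDH reads as the reference 0 of the 10 genes were at least 2-fold lower. GAPDH itself had a log2 ratio of -0.15 by TMM and ACTB one of -0.0015. That reference shifted the median of all assessed genes by 0.15 and the share of higher among the 2-fold calls from 58.0% to 70.4%, and it put GPX4 at 0.14 (0.03 to 0.26) and SOD2 at 0.32. The median of the 10 genes ranged from -0.18 to -0.01. With the stricter intervals, 1 of the 10 genes was above equal expression. The number below equal expression is not reported here, and the share over all assessed genes was not counted there. Over the pathway lists together, the genes at least 2-fold higher numbered 1 with a filter of 5 CPM, which assesses fewer genes. Among all genes, 570 of the 13569 assessed with that filter were called higher. A 1.5-fold threshold gave 12 higher and 23 lower of the 137 list genes, more than at 2-fold as its construction requires. Among all assessed genes, 14.4% were higher and 11.9% lower at 1.5-fold. Of 88 values for single genes and pairs, 85 stayed within their counting interval and 3 left it, all with the GAPDH reference. The filters of 1 read and 5 CPM do not alter a gene's ratio, so their values among the 85 could not have left it. With a filter of 5 CPM, HMOX1 was not assessed. An order of levels per coding length was not run. No paired analysis was possible because a group consists of 1 library here, which also cannot be left out. The sevoflurane depth limits genes near its floor of 3 reads, or 0.302 CPM.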

Other observations

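Some genes on the lists of oxidant sources (11 assessed) and ferroptosis regulators (13 assessed) differed by more than each of the 10 antioxidant defence genes. The monoamine oxidases, mitochondrial enzymes that release hydrogen peroxide and whose genes are X-linked, were both lower in the sevoflurane library, with MAOB at 955 and 148 reads (log2 ratio -1.92, 95% interval -2.19 to -1.68) and MAOA, listed by gene ID, at 1172 and 338 reads (-1.03, interval -1.21 to -0.86). NOX3, an NADPH oxidase known from the inner ear, had 6 and 42 reads (3.11, interval 2.32 to 5.09). DUOX1 and DUOX2 were higher as well, at 1.94 and 2.45. Over the oxidant sources, 3 of 11 assessed genes were higher and 3 lower by the interval, or 27.3% each, near the 28.4% and 28.1% of all assessed genes.

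Of the 13 assessed ferroptosis regulators, 5 were higher and 7 lower, or 38.5% and 53.8% beside the same background. PTGS2, the inducible cyclooxygenase, had 487 and 57 reads (-2.31, interval -2.76 to -1.94), GCH1, which makes the antioxidant cofactor tetrahydrobiopterin, had 94 and 22 reads (-1.28), and ALOX15, a lipoxygenase, had 15 and 36 reads (1.86, interval 1.12 to 3.00). ACSL4, which loads membranes with oxidisable fatty acids, was at -0.34 (-0.43 to -0.25). Heme and iron genes had 4 of 13 higher (30.8%, near the background) and 7 lower (53.8%), with the transferrin receptor gene TFRC at -0.43. The metallothioneins, metal-binding thiol proteins, parted, with MT1X at -1.40 (116 and 25 reads) and MT2A at 0.92 (0.37 to 1.54). They are near-identical copies, so counting may have split their reads.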
